A study of Rattus norvegicus with 10 samples.

Results

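Havcr1, Lcn2, Spp1 and Clu are 4 genes whose transcripts are widely used as markers of injury to the kidney tubule. The rule that picked them named 4 Ensembl identifiers of the 32623 in the count table and used no measured value. Each was kept because its chromosome was the one stated for the gene. Earlier results of these data were known when the markers were chosen. All 4 passed the filter on low counts, among 15047 genes tested. Kidneys came from male rats of the outbred Sprague-Dawley stock, in a study that looked for genes of osmoregulation. The control group (5 animals) drank freely, and the dehydrated group (5 animals) had no water for 72 hours (3 days). Each library holds polyadenylated RNA of whole kidney from an animal, so cortex and medulla are mixed and all cell types of the organ contribute. No label states the age or body weight of the rats. The files do not pair identifiers with symbols. The names of the 4 genes therefore come from the selection rule, and RefSeq places a gene of the same symbol on the same chromosome for 4 of 4.

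Havcr1 encodes kidney injury molecule 1, a membrane receptor for phosphatidylserine that injured proximal tubule cells display and use to take up dying neighbours. Lcn2 encodes lipocalin 2 (neutrophil gelatinase-associated lipocalin), a secreted protein that withholds iron-laden siderophores from bacteria and is released by stressed distal tubule cells and by neutrophils. Spp1 encodes osteopontin, a secreted phosphoprotein that binds integrins and CD44 and inhibits calcium crystal growth in urine; the healthy kidney already makes it in the loop of Henle and distal nephron. Clu encodes clusterin, a secreted chaperone that binds misfolded proteins and appears in damaged tubules. Assigned fragments ranged from 29454213 to 35898689 per library.

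Over all 10 kidneys, each of the 4 markers had a higher mean in the dehydrated group, and none of the 4 passed edgeR's test with no covariate. The mean was 2.26-fold higher for Havcr1, 1.97-fold for Lcn2, 1.71-fold for Spp1 and 1.40-fold for Clu, while the spread between animals of 1 group was wide. In both groups the animal titled replicate 5 had the highest level of each marker. With both of these kidneys left out, Havcr1, Lcn2 and Spp1 passed as higher and Clu did not. That choice was made from the high values of these same genes, so the passing tests are no independent evidence of a change. As these are bulk samples, more transcript per cell and more cells that carry it cannot be told apart.

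The 4 genes lie at very different levels. CPM below is the count of a gene relative to the total of tested genes in its library, scaled between libraries by TMM. Genes were set against each other only per length, as CPM per kb of summed exon length. On that scale Spp1 averaged 636 over the 10 libraries, rank 112 of the tested genes, and Clu averaged 76.9. Lcn2 averaged 7.97 and Havcr1 2.80, with 47.8% and 27.1% of tested genes at a lower level. Per kb, Spp1 was above Clu by 5.30-fold to 11.3-fold and Clu above Lcn2 by 5.81-fold to 22.1-fold, with no overlap between the ranges of neighbours in this order. Lcn2 was above Havcr1 in 10 of 10 libraries, by 1.56-fold to 8.08-fold, although the ranges of these genes overlapped.

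Havcr1 (ENSRNOG00000007243) lies on chromosome 10 at 31813814 to 31848379 of Rnor_6.0, on the plus strand, with 9 annotated exon ranges. In control kidneys it stood at 2.29, 2.37, 2.91, 21.8 and 4.22 CPM in replicates 2, 3, 4, 5 and 6. In dehydrated kidneys it stood at 4.69, 8.02, 9.29, 43.0 and 10.9 CPM in replicates 1, 2, 4, 5 and 6. The 4 other controls lay below every dehydrated kidney, whereas control replicate 5 lay above 4 of the 5 dehydrated kidneys, so the groups overlapped. This and the comparisons of the other markers follow the titles, although both libraries titled replicate 6 have a name with the opposite group's letter. The group means were 6.71 ± 8.45 CPM in control and 15.2 ± 15.7 CPM in dehydrated kidneys (SD, n = 5), and each SD was larger than its mean. The log2 fold change was 1.17 (SE 0.69, 95% interval -0.32 to 2.66; edgeR adjusted p = 0.365). An exact two-sided permutation test of the CPM values over all assignments of the animals gave p = 0.397. RefSeq lists 1 pseudogene named for Havcr1. Its sequence was not compared with Havcr1, so whether fragments were counted to the wrong gene was not tested. No other annotated gene overlaps Havcr1, Lcn2, Spp1 or Clu on either strand.

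Lcn2 (ENSRNOG00000013973; chromosome 3, 11414186 to 11417546 of Rnor_6.0, minus strand, 6 exon ranges) gave the steadier contrast of the low-level pair. Its control values were 4.07, 4.35, 2.02, 9.33 and 4.12 CPM in replicates 2, 3, 4, 5 and 6. Its dehydrated values were 5.43, 8.96, 8.11, 15.2 and 9.27 CPM in replicates 1, 2, 4, 5 and 6. Again 4 controls lay below every dehydrated kidney, and control replicate 5 lay above 4 dehydrated kidneys. The means were 4.78 ± 2.72 and 9.40 ± 3.60 CPM in control and dehydrated kidneys (SD, n = 5). The log2 fold change was 0.98 (SE 0.33, 95% interval 0.25 to 1.70; edgeR adjusted p = 0.0974). The exact permutation test gave p = 0.0476, where the smallest p of the design is 0.0079.

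Spp1 (ENSRNOG00000043451; chromosome 14, 6673686 to 6679901 of Rnor_6.0, minus strand, 9 exon ranges) was the abundant marker, counted with 14878 to 82320 fragments per library. Its control values were 598, 483, 622, 1155 and 703 CPM in replicates 2, 3, 4, 5 and 6. Its dehydrated values were 860, 940, 987, 2244 and 1072 CPM in replicates 1, 2, 4, 5 and 6. The 4 dehydrated kidneys other than replicate 5 lay within a narrow band above 4 of the controls, and control replicate 5 was higher than all of that band. The means were 712 ± 260 and 1221 ± 577 CPM (SD, n = 5). The log2 fold change was 0.78 (SE 0.27, 95% interval 0.19 to 1.36; edgeR adjusted p = 0.106), and the exact permutation test gave p = 0.0556. With CPM by library totals in place of TMM, that exact permutation p was 0.0476.

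Clu (ENSRNOG00000016460; chromosome 15, 42640146 to 42665857 of Rnor_6.0, plus strand, 15 exon ranges) differed least between the groups. Its control values were 132, 113, 94.2, 162 and 101 CPM in replicates 2, 3, 4, 5 and 6. Its dehydrated values were 159, 110.0, 137, 245 and 192 CPM in replicates 1, 2, 4, 5 and 6. Dehydrated replicates 1, 2 and 4 lay inside the control range, and 3 controls were above dehydrated replicate 2. The means were 120 ± 27.4 and 169 ± 52.4 CPM (SD, n = 5). The log2 fold change was 0.49 (SE 0.19, 95% interval 0.069 to 0.91; edgeR adjusted p = 0.159), and the exact permutation test gave p = 0.103.

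**Figure D1:**
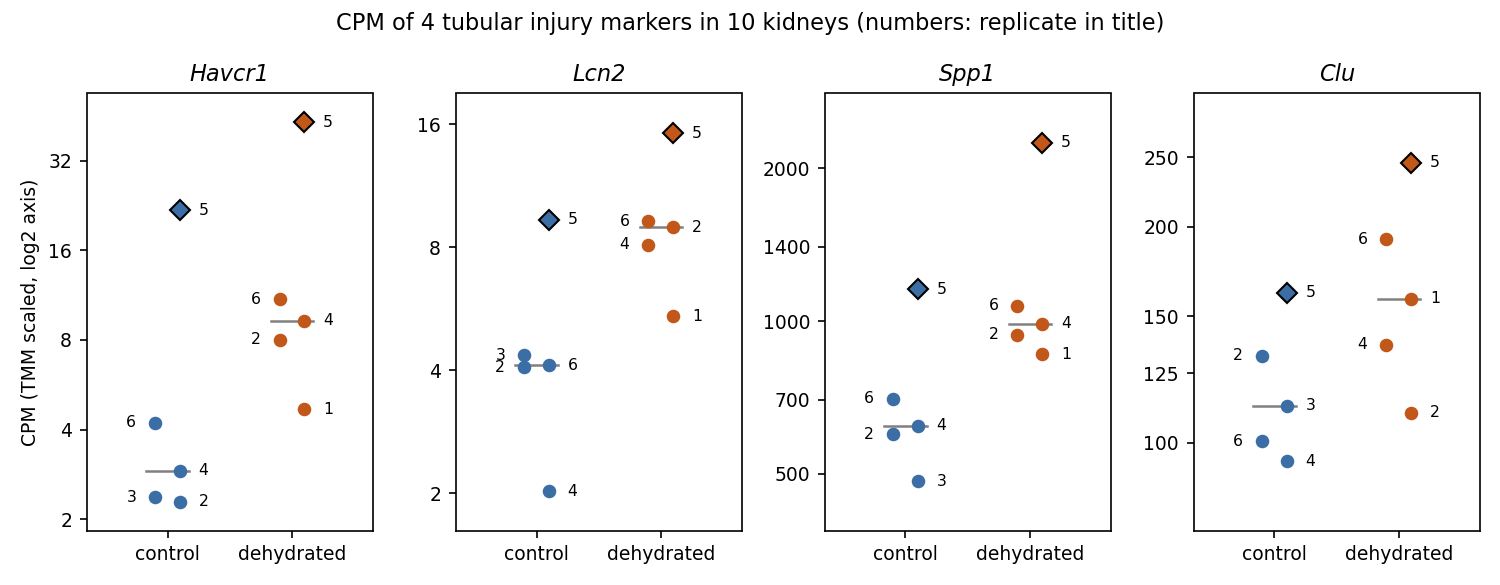
CPM of Havcr1, Lcn2, Spp1 and Clu (log2 axes, 1 point per kidney, 5 control and 5 dehydrated; numbers give the replicate in the title, diamonds mark replicate 5, grey lines the group median). Replicate 5 is the highest of its group in all 8 columns, at 21.8 and 43.0 CPM for Havcr1.

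The count of 0 called markers is read against the background of the whole table. By edgeR's quasi-likelihood test, 1275 of 15047 genes (8.47%) were called at an adjusted p below 0.05, 4.7% of all tested genes as higher. At an unadjusted p below 0.05, 3 of the 4 markers (Lcn2, Spp1 and Clu) passed as higher, against 11.1% of all tested genes. No marker separated the groups completely, as 4.39% of tested genes did with higher values in dehydrated kidneys. The median log2 fold change was 0.88 over the 4 markers and -0.005 over all tested genes. In the authors' deposited table the log2 fold changes of Havcr1, Lcn2, Spp1 and Clu were 1.18, 0.98, 0.78 and 0.49. Their adjusted p in the authors' deposited table were 0.449, 0.12, 0.208 and 0.226, so none was called there, where 10.9% of the listed genes were.

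The spread between animals was large for all 4 genes. The biological coefficient of variation, edgeR's estimate of the relative spread between animals of 1 group, was 0.724 for Havcr1 against a median of 0.0984 over tested genes. Only 16 tested genes varied more than Havcr1. For Lcn2 it was 0.362, for Spp1 0.296 and for Clu 0.215, above 98.5%, 96.8% and 90.9% of tested genes. Among genes whose mean CPM was within a factor of 2 of its own, each marker had a wider pooled SD of log2 CPM than 98.8% (Clu) to 99.9% (Havcr1) of them. Without both replicates 5 the share was 98.5% for Havcr1, 97.1% for Lcn2 and 97.8% for Clu, but 88.8% for Spp1. Among the other 8 kidneys the biological coefficient of variation was 0.242 for Havcr1, 0.220 for Lcn2, 0.110 for Spp1 and 0.154 for Clu. These values lay above 95%, 93%, 60.3% and 79.6% of the genes tested there. Lower values follow in part from leaving out the highest kidney of each group. Havcr1 and Lcn2 thus remained variable on both measures, Clu mainly against genes of similar level, and Spp1 less so.

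**Figure D2:**
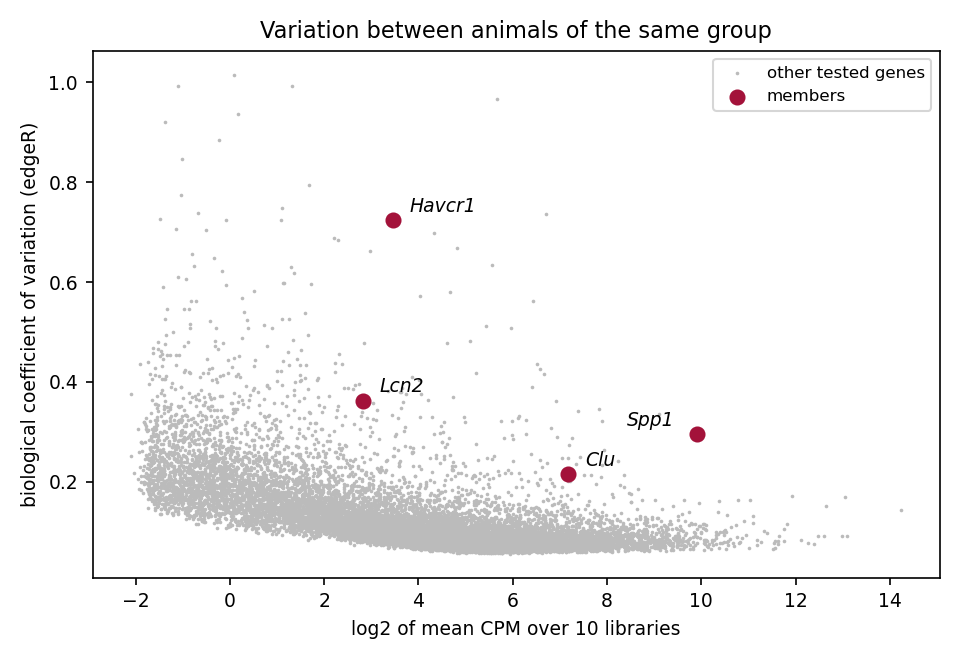
Biological coefficient of variation within groups (edgeR, y axis) against log2 of the mean CPM over 10 libraries (x axis) for 15047 tested genes (grey) and the 4 markers (red). Havcr1 at 0.724 and Spp1 at 0.296 lie above nearly all genes of similar level.

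The kidneys of replicate 5 formed the upper end of this spread for each gene. Control replicate 5 exceeded the mean of the other controls 7.39-fold for Havcr1, 2.57-fold for Lcn2, 1.92-fold for Spp1 and 1.47-fold for Clu. Dehydrated replicate 5 exceeded the mean of the other dehydrated kidneys 5.22-fold for Havcr1, 1.92-fold for Lcn2, 2.33-fold for Spp1 and 1.64-fold for Clu. Taking for each gene the smaller of its excess in the control and in the dehydrated replicate 5, Havcr1 ranked 1 of 15047 tested genes. Spp1 ranked 14, Lcn2 15 and Clu 79. Replicate 5 was the highest kidney of both groups for 4 of 4 markers and for 4.99% of tested genes. This measure was chosen after the values were seen and carries no test.

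Across all genes the libraries of replicate 5 seldom stood out as far as they did for Havcr1, the only marker at least 2-fold high in both. A level at least 2-fold above the mean of the rest of the group was found for 0.631% of tested genes in control replicate 5 and 0.591% in dehydrated replicate 5, the highest shares of the series, against 0.246% to 0.552% in the other 8 libraries. Both libraries together were at least 2-fold high for 12 genes, Havcr1 among them, against 0 to 13 genes for the 24 other pairs of a control and a dehydrated library. Both were at least 2-fold low for 22 genes, against 4 to 37. Deviations from the group mean over all tested genes gave r of 0.14 between the replicates 5. That was the highest of all pairs of a control and a dehydrated library, with at most 0.092 between libraries of unlike number. The sequencing depth of the replicates 5 lay within the range of the series for control (33966551 fragments) and was its highest for dehydrated (35898689 fragments). The labels do not say what a replicate number stands for, and the part of any shared factor in these levels was not tested.

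**Figure D3:**
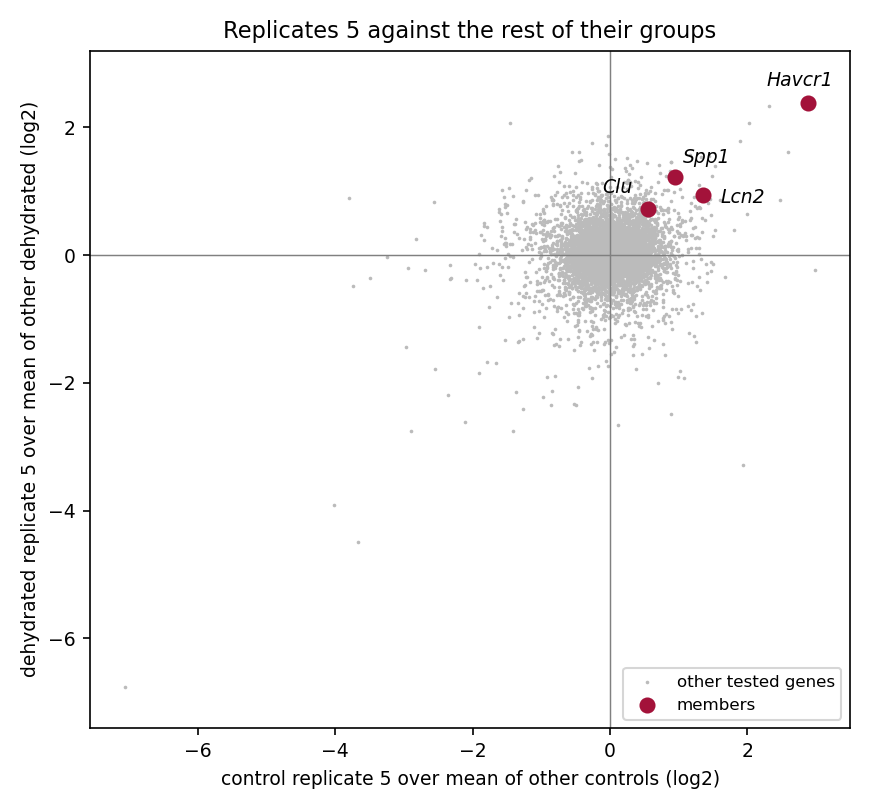
Log2 ratio of replicate 5 to the mean of the other 4 kidneys, in control (x axis) and dehydrated (y axis) rats, for tested genes (grey) and the 4 markers (red). Havcr1 lies at the far upper right, with ratios of 7.39 and 5.22 before taking logs.

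The remaining kidneys kept a similar order for 2 of the markers. In the dehydrated group Havcr1 and Spp1 ranked the animals identically, from replicate 5 through 6, 4 and 2 down to replicate 1. Lcn2 differed from that order only in that replicate 2 came before replicate 4. Clu placed replicate 1 ahead of replicate 4, and replicate 2 last. In the control group the orders below replicate 5 differed: replicate 6 was next for Havcr1 and Spp1, replicate 3 for Lcn2 and replicate 2 for Clu. With 5 animals in a group these orders were not tested.

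Without both replicates 5, in 4 control and 4 dehydrated kidneys, 3 of the 4 markers passed, where 4.05% of all genes were called higher. Havcr1 had a mean of 2.95 ± 0.891 CPM in control and 8.23 ± 2.65 CPM in dehydrated kidneys (SD, n = 4), 1.48 in log2 fold change (95% interval 0.92 to 2.04; edgeR adjusted p = 0.0054). Lcn2 had a mean of 3.64 ± 1.09 CPM in control and 7.94 ± 1.75 CPM in dehydrated kidneys, 1.13 in log2 fold change (95% interval 0.63 to 1.63; edgeR adjusted p = 0.0122). Spp1 had a mean of 602 ± 90.6 CPM in control and 965 ± 88.5 CPM in dehydrated kidneys, 0.68 in log2 fold change (95% interval 0.45 to 0.91; edgeR adjusted p = 0.0030). For these 3 genes the groups no longer overlapped, as for 7.22% of tested genes with higher values in dehydrated kidneys. The exact permutation p was 0.0286 for each of the 3, the smallest that 70 assignments allow. Clu stood at 110 ± 16.7 and 149 ± 34.7 CPM, 0.44 in log2 fold change (edgeR adjusted p = 0.111), and its groups still overlapped; DESeq2 on the same kidneys gave an adjusted p of 0.0347. Because the 2 kidneys were left out for their high levels of these genes, a narrower spread follows by construction. For Havcr1, Lcn2 and Spp1, control replicate 5 was the only control above the lowest dehydrated kidney. Without it the groups had to separate, and the exact permutation p had to be the smallest possible. Neither is evidence of a change. The 7.22% of tested genes that separated and the 4.05% called higher are no fair backgrounds for these markers. Leaving out the 2 libraries changed other genes too: 1068 genes were called, 136 of them not among the 1275.

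A single one of these libraries moved the values in opposite directions. Each was the highest kidney of its group for every marker, so these directions were fixed by the choice of library. Without control replicate 5 alone, the log2 fold change was 2.38 for Havcr1 (edgeR adjusted p = 0.0234), 1.38 for Lcn2 (0.0091), 1.02 for Spp1 (0.0226) and 0.62 for Clu (0.0645), with 5.05% of all genes called higher. Without dehydrated replicate 5 alone, it was 0.28 for Havcr1 (edgeR adjusted p = 0.876), 0.73 for Lcn2 (0.236), 0.44 for Spp1 (0.240) and 0.31 for Clu (0.352), with 3.95% of all genes called higher. Havcr1, Lcn2 and Spp1 were thus called in the first of these fits and not in the other. Those calls are no independent evidence of a change, and the 5.05% and 3.95% are no fair backgrounds for them. Between the replicates 5 themselves, the dehydrated kidney was above the control kidney 1.98-fold for Havcr1, 1.63-fold for Lcn2, 1.94-fold for Spp1 and 1.52-fold for Clu. Each side of that ratio is a single kidney, and the shared number was not taken to pair the animals. Among the other kidneys the ratio of group means was 2.79, 2.18, 1.60 and 1.36 in the same order of genes.

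**Figure D4:**
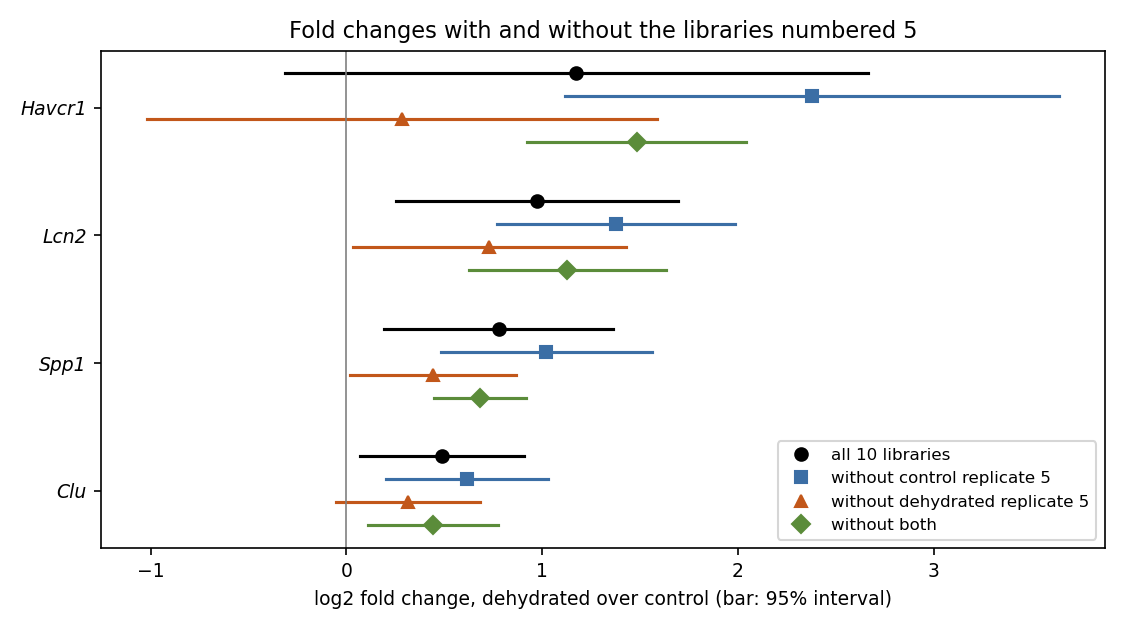
Log2 fold change of each marker, dehydrated over control, with its 95% interval, in the edgeR fit of all 10 libraries and without control replicate 5, dehydrated replicate 5 or both. For Havcr1 the interval runs from -0.32 to 2.66 with all libraries and from 0.92 to 2.04 without both.

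The genes next to the markers on the chromosome were compared to see whether a wider region moved. Of the 10 nearest tested genes around Havcr1, 0 were called in either direction by edgeR, with log2 fold changes from -0.57 to 0.43. Around Lcn2, 2 of 10 were called higher (log2 fold changes from -0.156 to 2.085), and around Spp1 2 of 10 (-0.55 to 0.55). Around Clu, 1 was called higher and 2 lower (-1.37 to 1.83). Among all tested genes 4.7% were called higher and 8.47% in either direction. Replicate 5 was highest in both groups for 1 of the 10 neighbours of Havcr1, 1 of those of Lcn2 and 0 of those of Spp1 and Clu.

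The genes most like each marker over the 10 libraries were sought among 12546 others with a mean of at least 2 CPM, as a description without a test. For Havcr1 the nearest was ENSRNOG00000018648 (chromosome 18, 62946953 to 62965538 of Rnor_6.0, minus strand), with Pearson's r of 0.94 in log2 CPM, and 0.81 without both replicates 5. Its own range was small, 21.3 to 25.8 CPM in control and 22.4 to 27.2 CPM in dehydrated kidneys. For Lcn2 the nearest was ENSRNOG00000011245 (chromosome 1, 19227121 to 19376301, minus strand), with r of 0.92, and 0.91 without both. Neither gene was called (edgeR adjusted p of 0.677 and 0.300). Because identifiers are not paired with symbols, 2 were named, taken in the order Havcr1, Lcn2, Spp1 and Clu. The gene nearest to Spp1 had the highest r of the 4, 0.95, and a log2 fold change of 0.51 (edgeR adjusted p = 0.0698). The gene nearest to Clu had an r of 0.93 and a log2 fold change of 0.06 (edgeR adjusted p = 0.455). An r of at least 0.9 was reached by 5 genes for Havcr1, 10 for Lcn2, 14 for Spp1 and 8 for Clu.

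The stretches of DNA in front of Havcr1, Lcn2 and Spp1 are shown because RefSeq's table of promoters matched 3 of the 4 markers, which were highest in the same kidneys; that of Clu is not used here. Each line gives 250 bases upstream of the transcript start in RefSeq (assembly GRCr8, which is not the build of the counts), 5′ to 3′ along the gene, with matches to any of the searched motifs in capitals.
Havcr1, chr10:31629528-31629777, plus strand: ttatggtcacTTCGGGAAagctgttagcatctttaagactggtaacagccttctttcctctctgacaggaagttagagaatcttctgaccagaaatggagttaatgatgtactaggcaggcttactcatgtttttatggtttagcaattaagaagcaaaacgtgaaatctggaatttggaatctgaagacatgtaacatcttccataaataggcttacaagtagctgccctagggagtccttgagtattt
Lcn2, chr3:36081781-36082030, minus strand: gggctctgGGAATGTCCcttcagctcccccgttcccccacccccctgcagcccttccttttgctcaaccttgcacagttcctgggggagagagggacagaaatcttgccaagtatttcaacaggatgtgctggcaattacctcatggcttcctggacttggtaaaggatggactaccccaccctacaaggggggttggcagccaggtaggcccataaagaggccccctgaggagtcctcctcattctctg
Spp1, chr14:5619805-5620054, minus strand: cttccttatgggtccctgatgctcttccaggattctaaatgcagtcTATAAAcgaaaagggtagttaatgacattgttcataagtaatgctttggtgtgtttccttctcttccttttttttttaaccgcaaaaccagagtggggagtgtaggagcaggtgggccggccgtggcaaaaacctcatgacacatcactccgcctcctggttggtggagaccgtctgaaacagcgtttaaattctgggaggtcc
Both strands were searched for 5 motifs. Spp1 held TATAAA, the letters of the TATA box, 204 to 199 bases before its start. These letters were present, at any position, in 12.9% of 33469 promoters of this length. Havcr1 held TTCNNGAA, a palindrome like those bound by STAT factors, 240 to 233 bases before its start (7.48% of promoters). Lcn2 held GGANNNTCC, a motif resembling NF-kappaB sites that was added after the sequences were seen, 242 to 234 bases before its start (6.76% of promoters). The core of the tonicity element bound by NFAT5, the factor that switches on genes of osmotic defence, was searched as TGGAAA. It is present in 19.7% of promoters and not among the letters of these 3 windows. The same held for the AP-1 motif TGANTCA (6.34% of promoters). These matches describe letters in a window, and whether any factor binds there was not tested.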

How the data were processed

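Whole-kidney polyadenylated RNA of 5 control and 5 dehydrated rats was sequenced, 1 library per animal. The deposited counts are fragment counts per Ensembl gene that the authors made with featureCounts 1.6.2, paired-end, strand setting 2, Ensembl release 103 of Rnor_6.0, per the file headers; the library file names carry the aligner Rsubread, with no version or settings. The authors' deposited table holds log2 fold changes with standard errors, p-values and adjusted p-values; the submitters' processing notes name DESeq2. Its 10 columns of values per library were not used, since the names of both columns numbered 6 conflict with the library names.

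Libraries were grouped by title. Both libraries titled replicate 6 have a name with the opposite group's letter, so fits without them and with them exchanged were planned. Replicates differed by more than counting noise (chi-square per degree of freedom 13.4 to 32.4 in 20 pairs within groups). All genes were fitted with edgeR 4.0.16 (glmQLFit, glmQLFTest) in R 4.3.3, with TMM scaling and filterByExpr (minimum count 10, minimum total 15), and p-values were adjusted by Benjamini-Hochberg over the 15047 tested genes of 21311 with any count. Standard errors were derived from the quasi-likelihood F of each gene. Pearson's r and SDs of log2 CPM used a prior count of 2. The script was tested on simulated data. Single values of the 4 genes were compared by exact two-sided permutation, 1 test per gene, unadjusted. Alternatives were DESeq2 1.42.0 and limma 3.58.1 (voom), DESeq2 size factors, no filter, leaving out libraries and a block for replicate number. Precision is set by 5 animals per group. The interval of a fold change gives the uncertainty of the difference between the groups, estimated from the spread between animals.

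The markers, lists and tests were chosen with earlier results of these data known. Named genes were the 4 markers and, for each, the tested gene with the highest r, limited to 2 identifiers. The 5 planned lists of injury, receptor, regulator and nephron genes, and the markers of cell types, were not analysed here, because 0 identifiers in the count table have a symbol in the reference (GRCr8). The labelled tissue was for that reason not checked against its markers, and the levels of leukocyte genes beside Lcn2 were not measured. RefSeq promoters (GRCr8) were matched by symbol for 3 of 4 markers.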

Additional observations from a re-analysis of the deposited data

Results flagged for a closer look

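In 3 of the 8 sets of 5 values (4 genes in 2 groups), 1 kidney lay far from the rest, by a gap that was large against the range of its group (Dixon's ratio above 0.71). For normally distributed values such a gap is found in about 1 in 20 sets. On log2 CPM, a scale added after the data were seen, 2 of the 8 sets passed the same limit: Havcr1 in control (0.731) and Spp1 in dehydrated kidneys (0.771), while Havcr1 in dehydrated kidneys had 0.619. Havcr1 stood at 21.8 CPM in control replicate 5 and at 43.0 CPM in dehydrated replicate 5, with ratios of 0.901 and 0.837. Spp1 stood at 2244 CPM in dehydrated replicate 5 (ratio 0.847). For Spp1 in control replicate 5 the ratio was 0.674, and for Lcn2 it was 0.681 in control and 0.608 in dehydrated replicate 5, below the critical value. For Clu it was 0.44 and 0.393.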

How the results depend on the processing

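All 4 markers were higher in dehydrated kidneys under each fit run, and none was called with DESeq2 size factors, no filter, limma voom or the DESeq2 Wald test on all 10 libraries. Leaving out 1 library gave log2 fold changes of 0.28 to 2.38 for Havcr1, 0.73 to 1.38 for Lcn2, 0.44 to 1.02 for Spp1 and 0.31 to 0.62 for Clu, the lowest without dehydrated replicate 5 and the highest without control replicate 5; only the latter fit called Havcr1, Lcn2 and Spp1. The direction of both these shifts follows from replicate 5 being the highest kidney of its group. The count of 1275 changed genes ranged from 879 to 1382. Without both replicates 5, added after the data were seen, the log2 fold changes of Havcr1, Lcn2 and Spp1 were 1.48, 1.13 and 0.68 in edgeR, 1.44, 1.16 and 0.69 in limma voom and 1.48, 1.13 and 0.68 in DESeq2, all called. DESeq2 also called Clu (0.44, adjusted p = 0.0347), which edgeR and limma did not. The ratios of mean CPM without both were 2.79 for Havcr1 and 1.60 for Spp1 (exact permutation p = 0.0286 each). That p is the smallest possible and follows from leaving out control replicate 5. In all 10 libraries the ratio for Spp1 was 1.71 with TMM (exact permutation p = 0.0556) and 1.72 with CPM by totals (exact permutation p = 0.0476). With the libraries numbered 6 exchanged, edgeR called 0 genes (1654 at an unadjusted p below 0.05), and the log2 fold changes were 0.79 for Havcr1, 0.53 for Lcn2, 0.54 for Spp1 and 0.12 for Clu, a fit that mixes treatments if the titles are right.

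With the replicate number as a block, over the 4 numbers present in both groups, 772 genes (5.13%) were called (431 higher, 341 lower), and the log2 fold changes were 1.41 for Havcr1 (edgeR adjusted p = 0.00086), 1.21 for Lcn2 (0.0067), 0.72 for Spp1 (0.0012) and 0.46 for Clu (0.156). The same 8 libraries without the block gave 881 genes and called none of the markers. Same-numbered libraries deviated together across genes with r of -0.054 to 0.14, above 0.1 in 1 of 4 pairs (replicates 5), and the best match of a library was its same-numbered one for 1 of 4 numbers; the numbers were not taken to pair animals.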
